A study of Rattus norvegicus with 24 samples.

Results

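The plasminogen activators Plat and Plau and the serpins Serpine2, Serpinf1, Serpinb9 and Serping1 were followed through the zones of the rat growth plate. They were chosen by name, with measured zone values of these same arrays known, as serine protease inhibitors of the cartilage matrix and their targets. The array annotation gave 8 probe sets for these 6 genes, of 31099 probe sets and 14218 genes with a single symbol in all. A probe set was kept for testing if its signal was above the array median in at least 4 of the 24 arrays. By that rule 5 of the 8 probe sets, from 4 of the 6 genes, were kept, and Serping1 and Plat had no tested probe set.

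The name of the group holds for some of the 6 genes. Serpine2 (protease nexin-1) and Serping1 (C1 inhibitor) are secreted inhibitors. Serpinb9 is an intracellular inhibitor of granzyme B. Serpinf1 (pigment epithelium-derived factor) has the serpin fold but does not inhibit proteases. Plat (tissue plasminogen activator) and Plau (urokinase) are not inhibitors but proteases.

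Serpins trap their target protease by letting it cut an exposed loop, after which inhibitor and enzyme stay locked together. Plat and Plau cut plasminogen to plasmin, which degrades fibrin and many matrix proteins and activates some matrix metalloproteinases. Serpine2 binds glycosaminoglycans and blocks Plau, Plat, plasmin and thrombin at the cell surface. In the growth plate, resting chondrocytes give rise to proliferating columns, and these enlarge into hypertrophic cells next to the invading vessels and bone. Serpinf1 is known as an inhibitor of vessel growth, and loss of its function causes a form of osteogenesis imperfecta.

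The study, deposited under a title on Indian hedgehog signalling, measured RNA of cartilage cut by hand from stained frozen sections of the upper tibia of 1-week-old rats that were not castrated. No strain is named. Each of 5 numbered animals gave an array of the resting, the proliferative, the proliferative-hypertrophic transition and the hypertrophic zone (n = 5 each), and animals 1, 2, 4 and 5 gave an array of epiphyseal cartilage (n = 4), by the animal numbers in the sample descriptions. Male rats are named in the labels of the resting, the proliferative and the hypertrophic arrays. Epiphyseal and transition arrays carry labels in other words, which give no sex and add that the rats had no treatment and ate standard chow. Batch and zone therefore cannot be told apart where an epiphyseal or transition array is compared with a zone of the other wording, and the labels do not say whether an animal number means the same rat under both. Values are MAS5 signals on a linear scale, and differences are of log2(signal + 16), with the animal as a block, ± the standard error of the fit. Such differences understate the change of dim probe sets. In bulk tissue, fewer cells of a type and less RNA per cell cannot be told apart.

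All 8 chondrocyte markers on the array were above the array median in all 24 arrays, and their summed signal lay between 208100 and 555500 over the 24 arrays. Markers of most, but not all, other cell types were higher in the hypertrophic than in the transition zone as a whole. All 5 hypertrophic arrays were above all 5 transition arrays in the summed osteoblast markers (49880 to 145100 against 7278 to 16240), osteoclast and macrophage markers (10780 to 88570 against 1953 to 2891) and erythroid markers (9638 to 32480 against 1058 to 5479). The same held for the leukocyte, endothelial and fibroblast sums, the last sharing Col1a1 and Col1a2 with the osteoblast list. Of single markers it held for 3 of 5 osteoblast, 7 of 10 osteoclast and macrophage and 5 of 6 erythroid genes. It also held for 4 of 7 leukocyte, 3 of 9 endothelial and 5 of 10 fibroblast genes, with no marker at 0. The 3 osteoblast genes were Ibsp, Col1a1 and Col1a2. Bglap and Dmp1 overlapped between the hypertrophic and the transition zone. Bglap read 7.0 and 13.5 in the hypertrophic arrays of animals 2 and 3. Dmp1 read 367 in the hypertrophic and 449.7 in the transition array of animal 3. The cytotoxic lymphocyte and skeletal muscle sums overlapped between these zones, where 1 of 8 and 2 of 12 single markers separated. The part of these cells in the differences between the hypertrophic and the transition zone was not tested.

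Some arrays stood apart within their zone. The hypertrophic array of animal 4 summed to 88570 over 10 osteoclast and macrophage markers, against 10780 to 16110 in the other hypertrophic arrays. Its perichondrium and fibroblast markers summed to 152200 against 35260 to 45310, and Bglap (osteocalcin) read 9393 there against 7.0 to 164.7. The epiphyseal arrays of animals 1 and 2 held 36530 to 72020 of the osteoclast and macrophage sum, against 4511 to 4928 in animals 4 and 5, and 5054 to 6970 of the endothelial sum, against 862.4 to 987.4. The resting array of animal 1 held 26520 of the osteoclast and macrophage sum, against 2123 to 7422 in the other resting arrays. Skeletal muscle markers summed to 68190, 126300 and 90610 in the resting arrays of animals 1, 3 and 5, against 20080 and 31790 in animals 2 and 4. Resting signals of Serpinf1, Plat and the brighter Serpinb9 probe set split the same way. Those of Serpine2, Serping1, both Plau probe sets and the second Serpinb9 probe set did not. The part of muscle in these values was not tested. Values of the 6 genes are also given without the hypertrophic array of animal 4 or both epiphyseal arrays where these move them most.

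**Figure D1:**
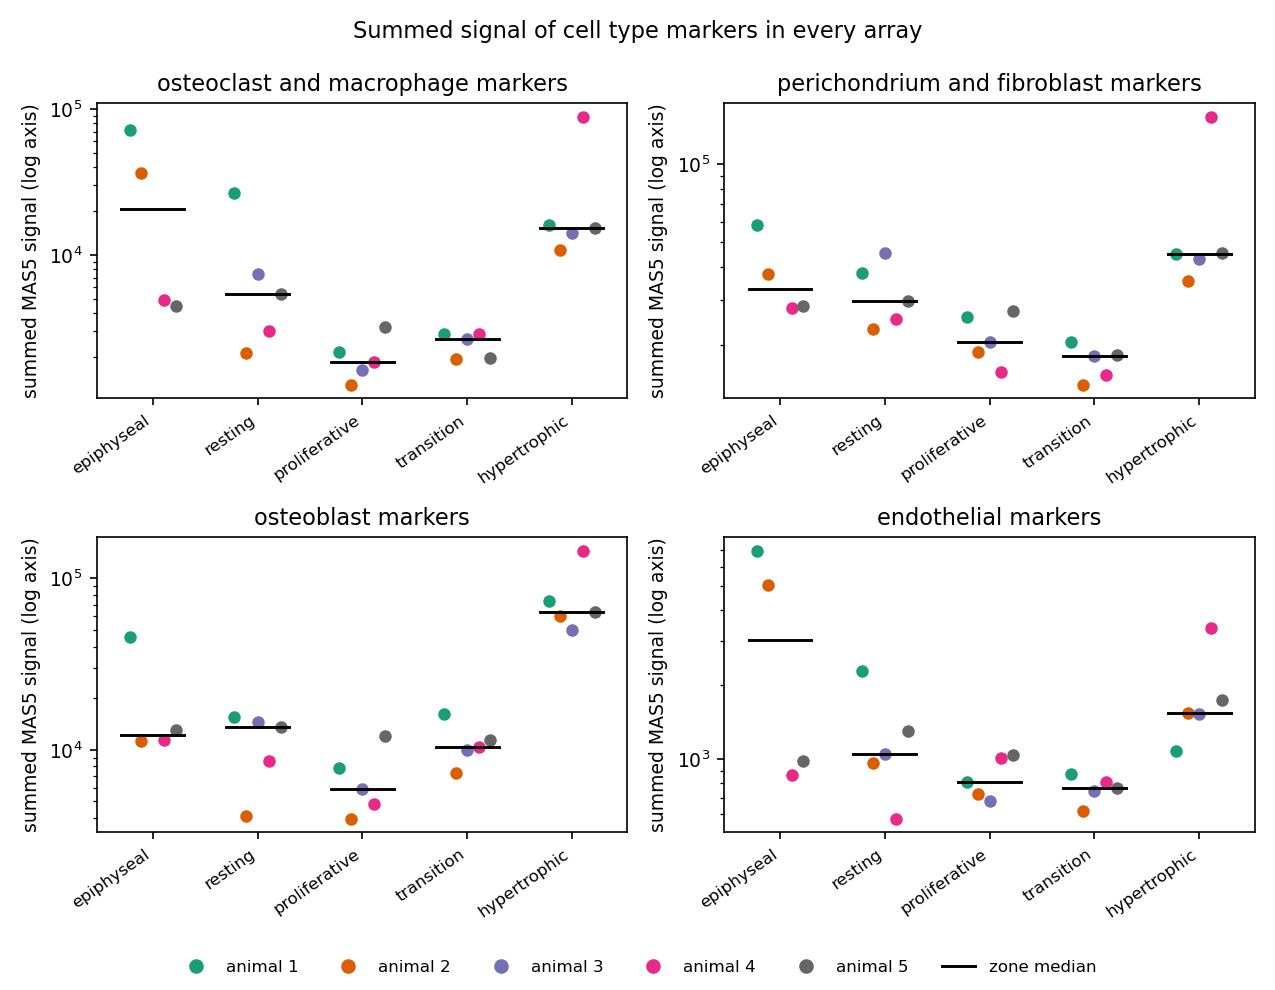
Summed MAS5 signal (log axis) of the markers of 4 other cell types in each of the 24 arrays, by zone; points are arrays coloured by animal and lines are zone medians. The hypertrophic array of animal 4 is the highest hypertrophic array in all 4 panels, and the epiphyseal arrays of animals 1 and 2 lie above those of animals 4 and 5 for osteoclast and macrophage, fibroblast and endothelial markers.

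The start regions of 3 genes are shown first. Serpine2 and, on its tested probe set only, Plau were lower in every proliferative than in every resting array, and Serpinf1 was not. The second Plau probe set gave a proliferative minus resting difference of 0.10 ± 0.48. Whether these regions bear on the zone levels was not tested. The windows are those of a RefSeq promoter table (GRCr8), which takes 250 bases before and 50 bases after 1 start site for each gene. For Plau and Serpinf1 that start is the outer edge of the annotated gene, and for Serpine2 it lies 50 bases inside it. Capitals mark the GC box GGGCGG or its complement CCGCCC, and TGTGGT or ACCACA, the core letters of Runx sites, on either strand, with overlapping matches counted.
Serpine2, chr9:88637153-88637452, minus strand: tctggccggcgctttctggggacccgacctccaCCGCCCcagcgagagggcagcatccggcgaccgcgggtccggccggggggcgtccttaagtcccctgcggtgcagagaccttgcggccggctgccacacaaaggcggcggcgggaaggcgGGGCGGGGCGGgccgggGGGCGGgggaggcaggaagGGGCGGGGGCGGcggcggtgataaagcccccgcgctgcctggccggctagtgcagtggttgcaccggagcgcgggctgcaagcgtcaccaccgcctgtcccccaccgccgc
Plau, chr15:3511938-3512237, minus strand: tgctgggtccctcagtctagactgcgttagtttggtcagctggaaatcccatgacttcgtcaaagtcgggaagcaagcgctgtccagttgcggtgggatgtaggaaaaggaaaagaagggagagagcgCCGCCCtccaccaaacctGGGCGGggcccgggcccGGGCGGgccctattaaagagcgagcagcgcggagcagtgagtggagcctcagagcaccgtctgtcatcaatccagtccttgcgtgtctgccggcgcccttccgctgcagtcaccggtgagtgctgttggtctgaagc
Serpinf1, chr10:60760849-60761148, minus strand: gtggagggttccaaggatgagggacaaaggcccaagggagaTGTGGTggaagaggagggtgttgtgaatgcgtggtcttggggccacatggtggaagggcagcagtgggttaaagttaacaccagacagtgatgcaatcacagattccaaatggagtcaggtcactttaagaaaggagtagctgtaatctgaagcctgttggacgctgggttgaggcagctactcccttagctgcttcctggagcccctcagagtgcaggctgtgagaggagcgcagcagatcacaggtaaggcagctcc

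The Serpine2 window held 6 GC boxes and was 77.0% G and C, above 97.9% of 33469 promoter windows of the same length, whose median was 51.7%. Plau held 3 GC boxes at 61.0% G and C. Serpinf1 held no GC box and 1 TGTGGT at 54.3%. The Serpinb9 window, at chr17:31640767-31641066 on the minus strand, held 1 GC box at 50.7%, but its start lies 11187 bases inside the annotated gene, so it does not show the outer edge. A GC box was in 33.1% of all windows and TGTGGT or its complement in 17.3%. The TATA box TATAAA, in 14.2% of all windows on either strand, was not in these 4. Of the 6 genes 4 had an entry in the promoter table, and Serping1 and Plat had none.

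Serpine2 was bright in epiphyseal, resting and hypertrophic cartilage and lower in the proliferative and transition zones. The gene lies on chromosome 9 at 88573138 to 88637252 (GRCr8) and is read by probe set 1372440_at, which was above the array median in 24 of 24 arrays. In the resting zone, animals 1 to 5 read 12629, 7279.7, 5777, 6376 and 5076. In the proliferative zone the same animals read 494, 287, 486, 235 and 351. Every proliferative array lay below every resting array, with means of 371 ± 117 and 7428 ± 3018 (SD, n = 5 each). The log2 difference was -4.24 ± 0.33, a fold of 18.9, and lay between -4.67 and -3.53 in single animals. Among the 6 genes no other zone step was this large.

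The low Serpine2 signal went on into the transition zone and ended in the hypertrophic zone. Transition arrays of animals 1 to 5 read 457, 434, 586, 656 and 514. They overlapped the proliferative arrays, 4 of 5 animals being higher in the transition zone, at a log2 difference of 0.53 ± 0.33. Hypertrophic arrays read 2999.9, 2538, 4200.5, 14144 and 2805. All 5 were above all transition and proliferative arrays, at 2.96 ± 0.33 over the transition zone and 3.49 ± 0.33 over the proliferative zone. Without the hypertrophic array of animal 4, which was 3.37 times as bright as the next, these were 2.46 ± 0.23 and 3.00 ± 0.23.

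Serpine2 was lower in the hypertrophic than in the resting zone in 4 of 5 animals. The hypertrophic minus resting difference was -0.75 ± 0.33 with all arrays and -1.25 ± 0.23 without the hypertrophic array of animal 4. In that animal the hypertrophic signal was above the resting signal, and in the other 4 it was below. Epiphyseal arrays of animals 1, 2, 4 and 5 read 9323, 5253, 3618 and 3961. Each was below the resting array of its own animal, although the ranges overlapped, at a resting minus epiphyseal difference of 0.43 ± 0.35, or 0.93 ± 0.44 when animals 1 and 2 give no epiphyseal array. The brightest resting array, of animal 1, is the one with the high osteoclast and macrophage sum. Without that animal the proliferative minus resting difference was -4.15. By mean log2 signal the order was resting, epiphyseal, hypertrophic, transition, proliferative. The only neighbours in it whose ranges did not overlap were the hypertrophic and the transition zone.

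**Figure D2:**
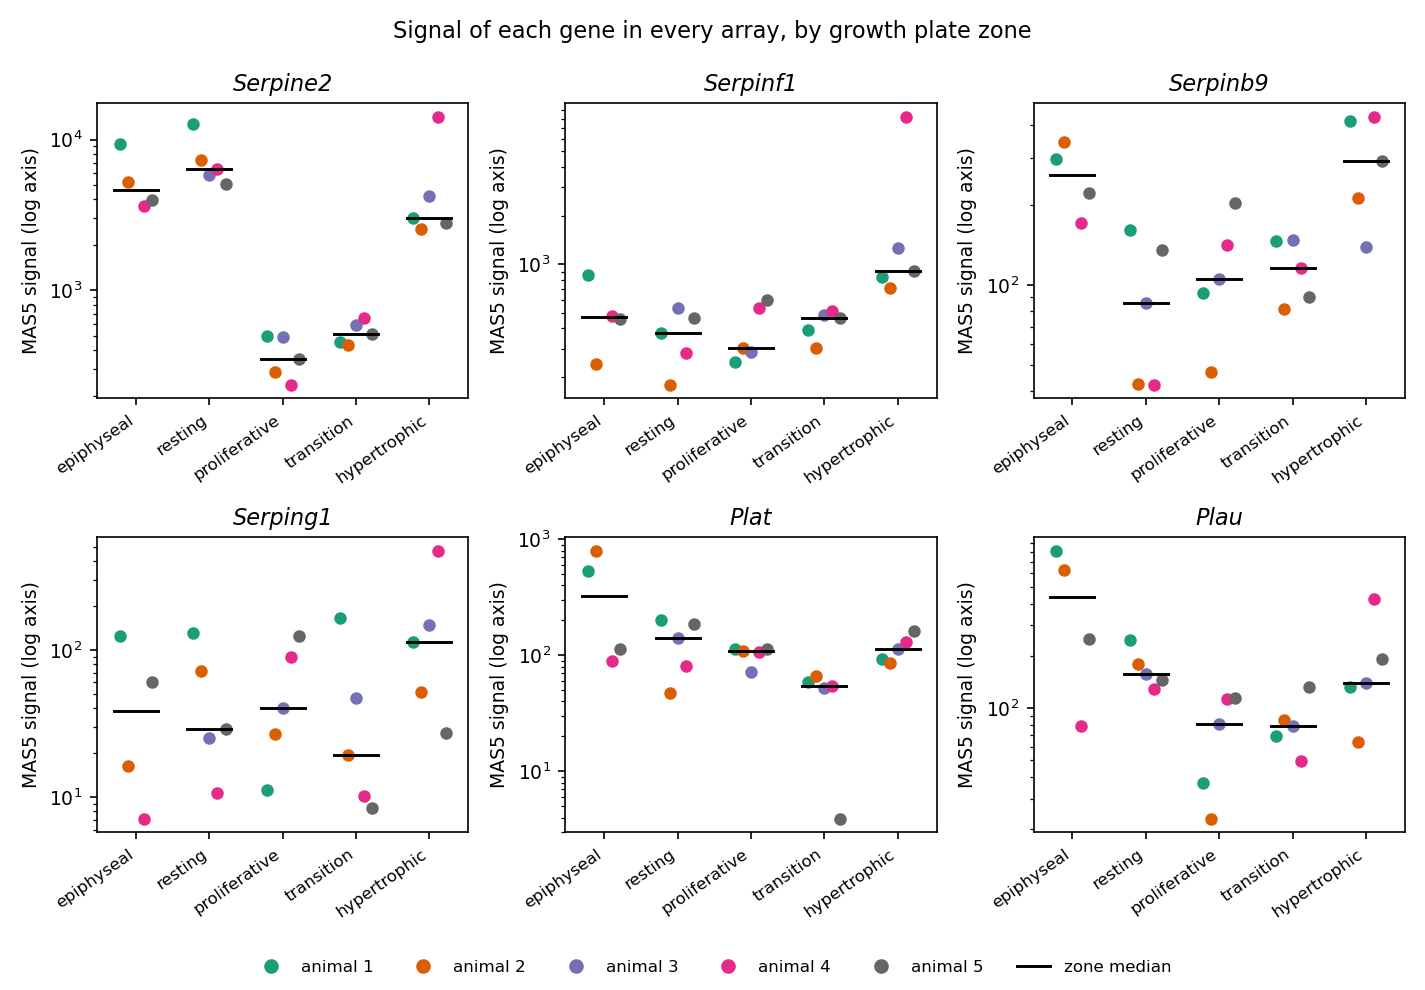
MAS5 signal (log axis) of the brightest probe set of each of the 6 genes in all 24 arrays, by zone; points are arrays coloured by animal and lines are zone medians. Serpine2 lies at 5076 to 12629 in resting arrays and at 235 to 494 in proliferative arrays, while the highest hypertrophic point of Serpinf1, at 8199, belongs to animal 4.

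Serpinf1 was brighter in the hypertrophic zone than in the other growth plate zones, which overlapped. It lies on chromosome 10 at 60748504 to 60760898, and probe set 1388569_at was above the array median in 24 of 24 arrays. Hypertrophic arrays of animals 1 to 5 read 830.5, 712, 1269.9, 8199 and 912. Transition arrays read 392, 305, 488, 516 and 463, and proliferative arrays 249.6, 303, 286, 534 and 605. Every hypertrophic array was above every transition, proliferative and resting array.

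The size of that difference was smaller without the hypertrophic array of animal 4. Its Serpinf1 signal was 6.46 times the next highest, and the other 4 hypertrophic arrays averaged 931 ± 241 (SD, n = 4). The difference from the transition zone was 1.70 ± 0.39 with that array and 1.10 ± 0.27 without it. Against the proliferative zone it was 1.89 ± 0.39 and 1.29 ± 0.27, and against the resting zone 1.99 ± 0.39 and 1.39 ± 0.27. Col1a1, an osteoblast and fibroblast collagen, read 39360 in the same array against 3516 to 13610 in the other hypertrophic arrays. The part of osteoblast or perichondrial RNA in the Serpinf1 values was not tested.

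The other zones did not separate for Serpinf1. Resting arrays read 377, 179, 538, 284 and 462, and epiphyseal arrays of animals 1, 2, 4 and 5 read 855, 242, 481 and 459. Their ranges overlapped, and the epiphyseal array of animal 1 also reached into the hypertrophic range. The steps from epiphyseal to resting, resting to proliferative and proliferative to transition came to -0.43 ± 0.42, 0.11 ± 0.39 and 0.19 ± 0.39. The first of these was 0.02 ± 0.52 without the epiphyseal arrays of animals 1 and 2.

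Serpinb9, the granzyme B inhibitor, was brighter at both ends of the series, in epiphyseal cartilage and in the hypertrophic zone, than between them. The gene lies on chromosome 17 at 31628887 to 31652003 and has 2 probe sets, 1373592_at and 1373672_at, which were above the array median in 9 and 5 of 24 arrays. On the brighter, 1373592_at, epiphyseal arrays of animals 1, 2, 4 and 5 read 298, 345, 171 and 222. Resting arrays of animals 1 to 5 read 161, 42.5, 85.6, 42.2 and 136. The resting range lay below the epiphyseal range, at -1.40 ± 0.39, and all 4 paired animals were lower in the resting zone. On the second probe set the ranges did not overlap either, at -1.64 ± 0.52. Without the epiphyseal arrays of animals 1 and 2 these differences were -0.91 ± 0.49 and -1.29 ± 0.69.

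Serpinb9 stayed low through the column and was higher beyond it. On 1373592_at the proliferative arrays read 93.3, 47.2, 106, 141 and 205. Transition arrays read 146, 81.7, 148, 116 and 90.4, and hypertrophic arrays 414, 212, 139, 429.8 and 294. Animals 1, 2, 4 and 5 were higher in the hypertrophic than in the transition zone, animal 3 was not, and the ranges overlapped. The hypertrophic minus transition difference was 1.17 ± 0.36, against 0.93 ± 0.48 on the second probe set. Without the hypertrophic array of animal 4 these were 0.96 ± 0.38 and 0.49 ± 0.48. The correlation of both probe sets over the 24 arrays was 0.65.

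Genes for granzymes, of which Serpinb9 inhibits granzyme B, and for perforin were dim in this tissue. Of 8 listed granzyme and perforin genes 6 were on the array, and Gzmk alone was bright enough to test, with no call in any comparison. Gzmb, which encodes granzyme B, did not exceed 154.9 in any array. Prf1, which encodes perforin, read 212.4, 370.8, 129.4, 209.5 and 198.1 in the hypertrophic arrays and at most 112.7 in the other 19. It was above the array median in 3 arrays and was not tested. The 8 cytotoxic lymphocyte markers, all on the array, summed to 207.8 to 970.0, against at least 208100 for the chondrocyte markers. By zone that sum was 441.7 to 970.0 in hypertrophic, 272.8 to 761.9 in transition and 207.8 to 604.7 in epiphyseal arrays, ranges that overlap. The part of any of these cells in the Serpinb9 values was not tested.

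Serping1, which blocks the first complement proteases and plasma kallikrein, was at the dim end of the array. Its gene lies on chromosome 3 at 90249410 to 90259299, and 1372254_at was above the array median in 2 of 24 arrays and was not tested. Outside the hypertrophic zone its signals ran from 7.1 to 165.6, with overlapping ranges in all 4 zones. Hypertrophic arrays read 112, 51.5, 147, 473 and 27.3. Animal 4 was the highest by 3.21 times, and animal 5 was within the range of the other zones, as were animals 1, 2 and 3. The hypertrophic minus transition difference of 1.37 ± 0.64 was 0.72 ± 0.61 without the array of animal 4.

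Plau, whose protein is held at the cell surface by its receptor, was highest in 2 epiphyseal arrays. It lies on chromosome 15 at 3505485 to 3511987, and its tested probe set, 1387675_at, was above the array median in 6 of 24 arrays. Epiphyseal arrays of animals 1, 2, 4 and 5 read 811, 625, 79.0 and 250.0. The arrays of animals 1 and 2 were the highest of all 24, and that of animal 4 was within the proliferative range. With all arrays the resting zone was lower than epiphyseal cartilage, at -0.89 ± 0.54, and with neither of those top arrays it was higher, at 0.52 ± 0.59.

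Plau differed between the resting and the proliferative zone, whose labels share their wording. Resting arrays read 246, 179, 158, 128 and 146. Proliferative arrays read 37.1, 23.0, 80.8, 113 and 114. All proliferative arrays were below all resting arrays, at -1.19 ± 0.51, which is a fold of 2.28. Transition arrays read 69.5, 85.2, 79.2, 49.4 and 133, and overlapped the proliferative arrays. Hypertrophic arrays read 132, 64.1, 139, 424 and 192, with animal 4 again the highest, by 2.21 times. The hypertrophic minus transition difference was 0.88 ± 0.51, and 0.42 ± 0.49 without that array.

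The second Plau probe set did not repeat this pattern. Probe set 1398287_at was above the array median in 0 of 24 arrays and its correlation with the first was -0.09. Its proliferative minus resting difference was 0.10 ± 0.48, and its ranges overlapped in that comparison. Its largest difference was between the hypertrophic and transition arrays, which did not overlap, at 1.46 ± 0.48. In epiphyseal cartilage its order was turned, with at most 19.5 in animals 1 and 2 and with 50.0 and 227 in animals 4 and 5. The lower Plau signal of the proliferative arrays therefore rests on 1387675_at.

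Plat, the activator best known from the vessel wall and from fibrin clots, was also highest in the epiphyseal arrays of animals 1 and 2. It lies on chromosome 16 at 75943061 to 76022037, and 1367800_at was above the array median in 3 of 24 arrays and was not tested. Epiphyseal arrays of animals 1, 2, 4 and 5 read 535, 798, 88.7 and 113. The first pair stood above every other array, and the second pair lay within the resting range. Resting arrays read 203, 47.2, 139.6, 80.4 and 187. The resting minus epiphyseal difference of -1.07 ± 0.53 turned to 0.17 ± 0.59 without the arrays of animals 1 and 2. In the same arrays the endothelial and the osteoclast and macrophage sums were high, as given above, and their part in the Plat and Plau values was not tested.

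Plat was lowest in the transition zone. Proliferative arrays read 114, 109.9, 72.0, 107 and 114, and transition arrays 58.4, 65.9, 52.4, 54.8 and 3.9. Hypertrophic arrays read 92.6, 86.6, 113, 131 and 163. The transition range lay below both neighbours, all 5 animals being lower there than in their own proliferative and hypertrophic arrays. The transition minus proliferative difference was -1.06 ± 0.49 and the hypertrophic minus transition difference 1.20 ± 0.49. All proliferative, transition and hypertrophic arrays were below the array median for Plat, and both comparisons cross the label wordings. Without animal 5, whose transition array read lowest at 3.9, the differences were -0.65 and 0.71.

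Counts over the 4 genes with a tested probe set followed these descriptions. A call needs a Benjamini-Hochberg adjusted p below 0.05 in limma over 19213 probe sets and a difference of at least 2-fold. The 6 genes were chosen on these contrasts, so nothing is read from their counts and no p is given for them. From epiphyseal cartilage to the resting zone 0 of 4 were past both limits, against 0.625% of 10558 genes higher and 1.05% lower. From resting to proliferative 1 of 4, Serpine2, was lower, where 2.15% of genes were higher and 3.98% lower. From proliferative to transition 0 of 4 passed, against 3.38% and 5.08%.

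In the hypertrophic zone Serpine2, Serpinf1 and Serpinb9 were past both limits against the transition zone, 3 of 4, where 7.45% of genes were higher and 2.42% lower. Serpinb9 was under 2-fold there, at 0.96, and not past both without the hypertrophic array of animal 4. Its second probe set was past them against the resting zone only. Serpinb9 passed the filter through the zones where it is bright. Its brighter probe set was above the array median in 4 hypertrophic, 3 epiphyseal, 1 proliferative, 1 transition and 0 resting arrays. The share of genes called is therefore no measure for its place in these counts. Serpine2, Serpinf1 and Serpinb9 were also past both limits against the proliferative zone, where 10.3% were higher and 8.96% lower. Against the resting zone 2 of 4, Serpinf1 and Serpinb9, were higher, with 10.1% of genes higher and 10.2% lower. Without the hypertrophic array of animal 4, Serpine2 was also past them there as lower, as was Serpinb9 between epiphyseal cartilage and the resting zone. Without the epiphyseal arrays of animals 1 and 2, Plau was also past them in the hypertrophic against the proliferative zone, at 1.13. These comparisons share the hypertrophic arrays and are not independent. Over all 10558 genes the median difference of the hypertrophic zone was -0.007 against the transition, -0.039 against the proliferative and 0.001 against the resting zone. No median of the 4 genes is set beside these, because the genes were chosen on the same contrasts. Scaling the arrays to one median moved the median of all tested probe sets from 0.016 to -0.24 between the transition and the hypertrophic zone, and the calls from 1303 higher and 478 lower to 880 and 1162. It also moved the calls from 378 higher and 792 lower to 493 and 664 between the resting and the proliferative zone, and from 598 and 1021 to 855 and 738 between the proliferative and the transition zone. Between the proliferative and the hypertrophic zone the calls went from 1843 higher and 1742 lower to 1624 and 2111. No direction of a brightest probe set of the 6 genes turned under that scaling.

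**Figure D3:**
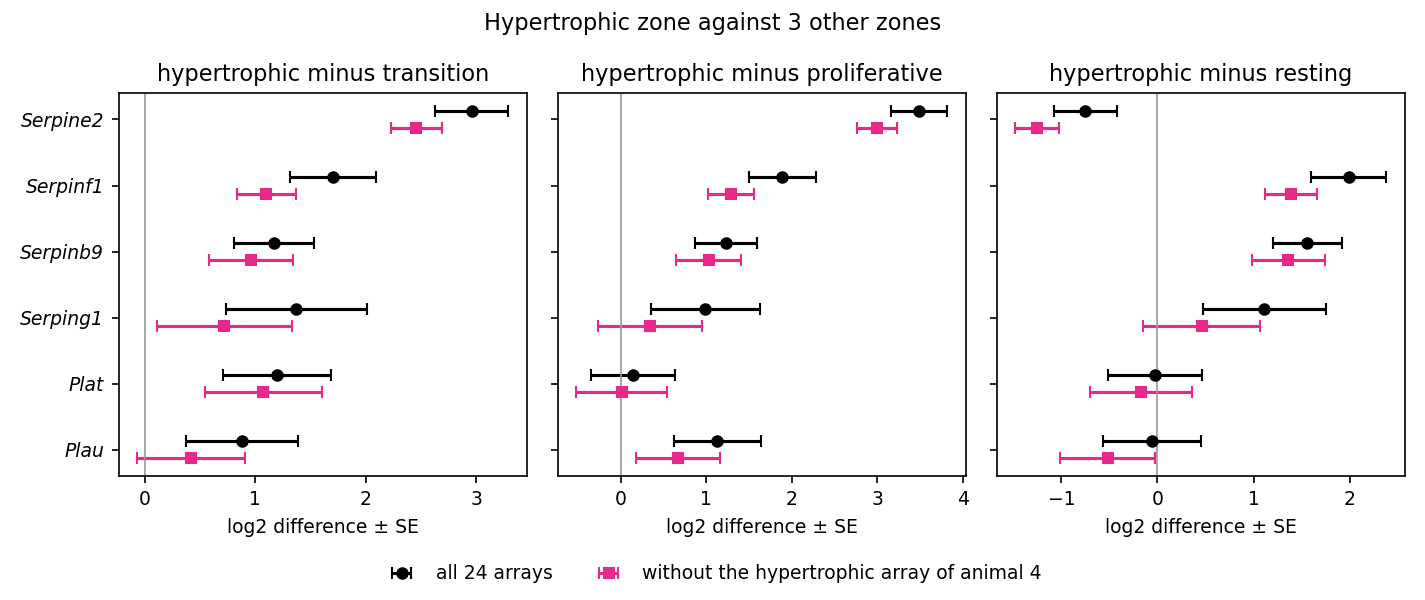
Log2 difference of each gene's brightest probe set between the hypertrophic zone and 3 other zones, with the standard error of the fit; circles use all 24 arrays and squares leave out the hypertrophic array of animal 4. Leaving it out lowers every difference shown, from 1.70 to 1.10 for Serpinf1 and from 1.37 to 0.72 for Serping1 against the transition zone.

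Single arrays carried several of the 6 genes together. The hypertrophic array of animal 4 was the highest of the 5 hypertrophic arrays for 7 of the 8 probe sets, Plat being the exception. Of the 10558 genes 22.5% were highest in that array. Both epiphyseal arrays of animals 1 and 2 were above both of animals 4 and 5 for 5 of the 8 probe sets, those of Serpine2, Serpinb9 (both), Plat and the tested Plau probe set. That order held for 21.0% of the 10558 genes.

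Pairs of the 6 genes were compared over the 24 arrays, which share animals and zones, so the correlations are descriptions. Serpine2 and Plau (1387675_at) had the highest Pearson correlation among different genes, 0.71, and 0.68 without the hypertrophic array of animal 4. Plat and Plau (1387675_at) had 0.61, and 0.63 without it. The second Plau probe set, 1398287_at, had 0.17 with Serpine2 and 0.02 with Plat over the 24 arrays. Serpinf1 had 0.63 with Serping1 and 0.33 with Serpine2, which became 0.40 and 0.14 without that array. Serpine2 and Serpinf1 were both brighter in the hypertrophic than in the transition zone, while by mean log2 signal the resting zone ranked highest for Serpine2 and lowest for Serpinf1.

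The genes most like each of the 6 over the 24 arrays were taken by Pearson correlation among the 10558. For Serpine2 they were Dcn, which encodes the small proteoglycan decorin (0.936), Myzap (0.923) and Pla2g5, a secreted phospholipase (0.913). Mean Dcn signals were 2905 in the resting, 314 in the proliferative and 269 in the transition zone, with 1419 in epiphyseal cartilage and 1355 in the hypertrophic zone. Dcn is also one of the perichondrium and fibroblast markers summed above. The part of such cells in the Serpine2 values was not tested. For Serpinf1 they were Gpx3, a secreted glutathione peroxidase (0.868), Col1a1 (0.863) and Col22a1 (0.863), and without the hypertrophic array of animal 4 these were 0.662, 0.794 and 0.626.

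For Serpinb9 the most alike were Coro1c, an actin-binding protein gene (0.835), Fes, a tyrosine kinase of myeloid cells (0.829), and Fxyd5 (0.816). Serping1 had lower values, 0.733 for Ppp2r1b and 0.657 each for Tmem119 and Ano6. For Plat they were Mmp3, a matrix metalloproteinase (0.829), C1qa, a complement chain made by macrophages (0.826), and Kitlg (0.798). For Plau they were Mmp14, a membrane metalloproteinase (0.881), C1qa again (0.842) and Igfbp7 (0.838). Mean Mmp3 signals were 4141 in epiphyseal cartilage and 289.5 in the resting zone.

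The proteins that act on or with these 6 were followed in 7 lists of related genes, 170 genes in all, of which 134 were on the array and 71 could be tested. Of the 71, 40 passed limma's F test over the 5 zones at an adjusted p below 0.05, where 60.5% of the 10558 genes did. From epiphyseal cartilage to the resting zone 2 rose (Itih3, Spint2) and 1 fell (Procr), beside 0.625% and 1.05% of all genes. With arrays scaled to one median the counts of related genes were 2 and 0. Without animal 1, animal 2 or the epiphyseal arrays of both, Itih3 alone was called. Between the resting and the proliferative zone 1 rose (Htra3) and 6 fell (F13a1, Pcsk5, Spint2, Plxdc2, F2r, Vegfa), beside 2.15% and 3.98% of all genes. Between the proliferative and the transition zone 4 rose and 3 fell, beside 3.38% and 5.08%. In the hypertrophic zone 14 rose and 3 fell against the transition zone, where 7.45% of all genes were called higher and 2.42% lower. Against the proliferative zone 14 rose and 6 fell, beside 10.3% and 8.96% of all genes. Against the resting zone 12 rose and 7 fell, beside 10.1% and 10.2%. With arrays scaled to one median these were 11 and 3, 14 and 6, and 10 and 7.

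**Figure D4:**
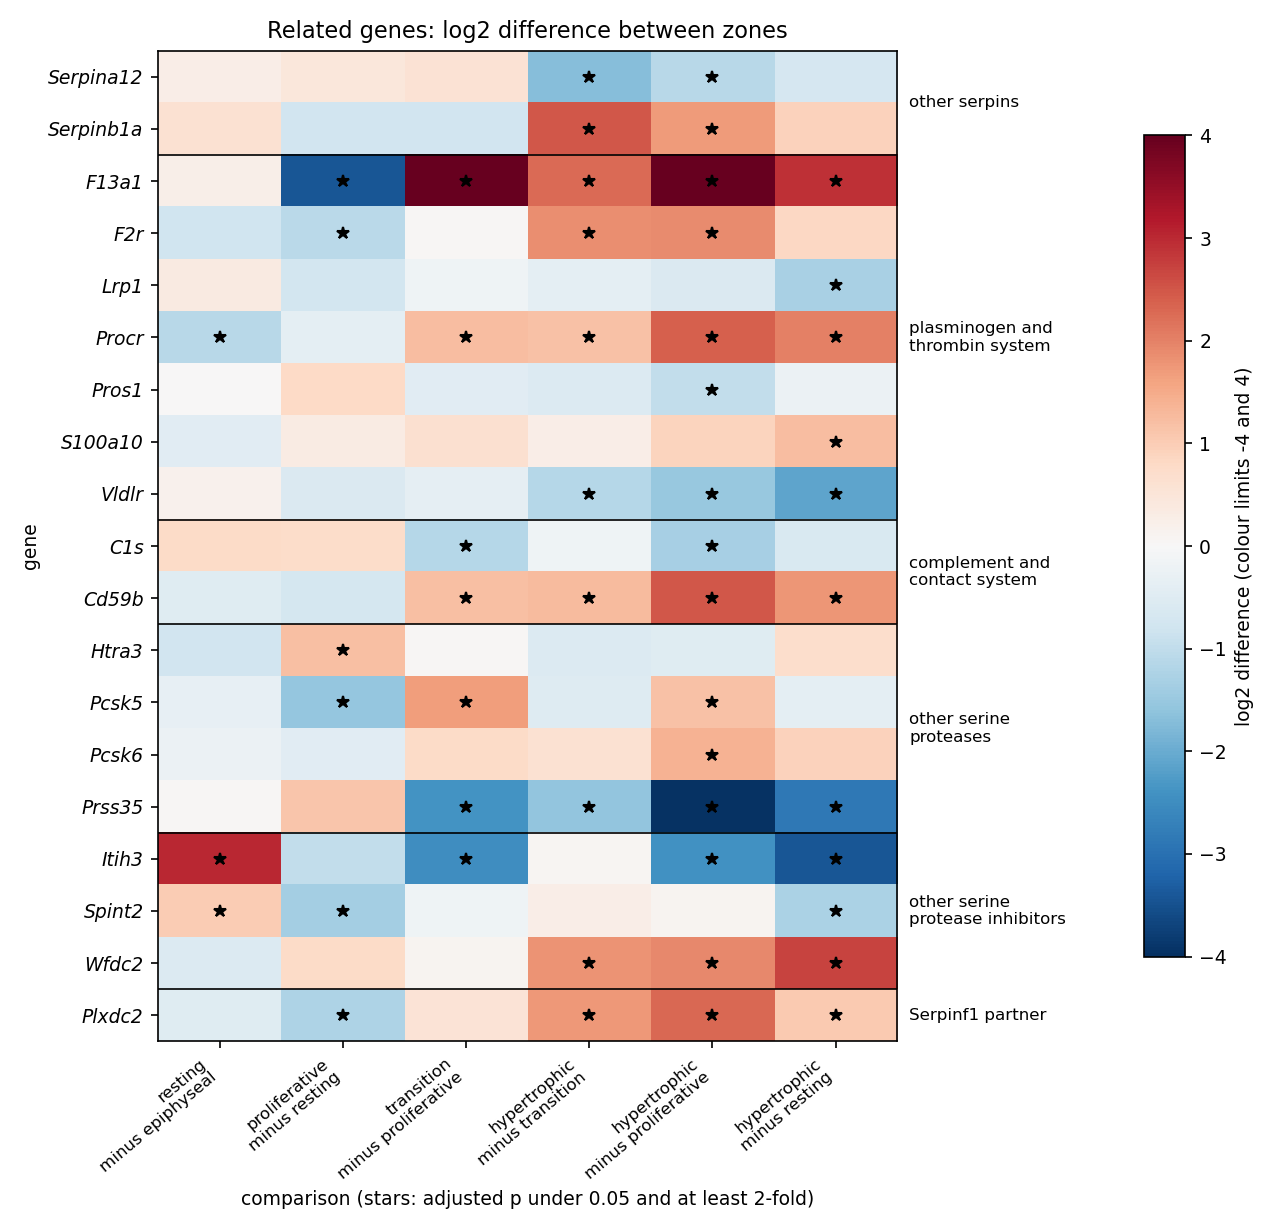
Log2 difference (colour) of the named related genes in 6 comparisons of zones; stars mark an adjusted p below 0.05 with at least a 2-fold difference, and values beyond -4 or 4 have the colour of the limit. F13a1 is past both limits in 5 of the 6 comparisons, and Serpinb1a and Serpina12 are starred in opposite directions in the hypertrophic zone.

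Other serpins were mostly too dim to test: 27 of 37 were on the array and 6 were tested. Serpinb1a, an intracellular inhibitor of neutrophil proteases, rose from 106 ± 61.3 in the transition to 619 ± 290 in the hypertrophic zone (SD, n = 5 each). Its difference was 2.47 ± 0.29 in 5 of 5 animals (limma adjusted p = 1.52e-06), and 2.52 without the hypertrophic array of animal 4. Serpina12 fell by 1.70 ± 0.43 over the same step in 5 of 5 animals (limma adjusted p = 0.00539). Against the proliferative zone its fall by 1.12 ± 0.43 (limma adjusted p = 0.0427) was not called without the hypertrophic array of animal 4 (limma adjusted p = 0.0611) or without animal 1, 2 or 3. Serpinh1, the collagen chaperone of the endoplasmic reticulum and like Serpinf1 no inhibitor, was called in no comparison, with mean signals between 18020 and 24550 in the 5 zones.

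In the plasminogen and thrombin list 16 of 32 genes were tested and 11 passed the F test, where 60.5% of all genes did. F13a1, the factor XIII subunit that crosslinks fibrin, was at 1125 ± 721 in the resting, 81.9 ± 34.2 in the proliferative and 8211 ± 3500 in the hypertrophic zone. It fell by 3.42 ± 0.31 between the first and second of these zones (limma adjusted p = 1.62e-08), over the step where Serpine2 was lower. Procr, the endothelial protein C receptor, rose from 107 ± 57.5 in the proliferative to 594 ± 80.8 in the hypertrophic zone, by 2.40 ± 0.27 (limma adjusted p = 1.67e-07).

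The thrombin receptor F2r fell between resting and proliferative zones by 1.08 ± 0.32 (limma adjusted p = 0.0258), a call lost without animal 1, 2 or 5 and with arrays scaled to one median (limma adjusted p = 0.0581). In the hypertrophic zone it was among the genes that rose against both the transition and the proliferative zone. Plaur, the Plau receptor, is given for its link to Plau. It rose between the transition and hypertrophic zones by 1.46 ± 0.51 in 5 of 5 animals (limma adjusted p = 0.0412). It did not pass the filter without the hypertrophic array of animal 4, and its call was also lost when any of the 5 animals was left out of every zone. Plg, which encodes plasminogen, was called in no comparison with all arrays, its largest difference being 0.92 ± 0.37 between the hypertrophic and the proliferative zone (limma adjusted p = 0.0516). That difference was 1.09 and was called without the hypertrophic array of animal 4 (limma adjusted p = 0.0319).

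Lrp1 and Vldlr, receptors that take up serpin-protease complexes, fell between the resting and the hypertrophic zone, while Lrp2 of the same list was too dim to test. Lrp1 had 7074 ± 1409 in the resting and 2839 ± 415 in the hypertrophic zone, a fall by 1.30 ± 0.15 in 5 of 5 animals (limma adjusted p = 1.71e-07). Vldlr fell over the same pair of zones by 2.10 ± 0.24 (limma adjusted p = 1.21e-07).

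For Serping1, the complement and contact list held 19 tested genes of 44, and 9 passed the F test, where 60.5% of all genes did. Cd59b, which blocks the membrane attack complex, rose by 1.28 ± 0.22 between the transition and the hypertrophic zone (limma adjusted p = 0.000113). Clu, Masp1 and Cd55 of the 19 rose with it and none fell, beside 7.45% of all genes higher and 2.42% lower. Without the hypertrophic array of animal 4, Masp1 and Cd55 were not called. C1s, the protease that Serping1 blocks, fell by 1.15 ± 0.29 between the proliferative and the transition zone (limma adjusted p = 0.00525), but by less than 2-fold, 0.96, after quantile normalization.

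For Serpinf1, all 6 genes listed with it were tested and 3 passed the F test, where 60.5% of all genes did. Vegfa is in that list of binding partners for its opposed action, not as a partner. Plxdc2, a receptor for Serpinf1, rose from 302 ± 46.6 in the transition to 1050.0 ± 243 in the hypertrophic zone, by 1.73 ± 0.22 in 5 of 5 animals (limma adjusted p = 2.97e-06). Without the hypertrophic array of animal 4 it was 1.83. Vegfa, the vessel growth factor that Serpinf1 opposes, was called lower in the proliferative than in the resting zone and higher in the hypertrophic than in the transition zone. The first of these calls was lost without animal 2, 3, 4 or 5.

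Among 11 tested serine proteases outside these systems, 8 passed the F test, where 60.5% of all genes did. Pcsk5, a proprotein convertase, fell by 1.56 ± 0.22 from the resting to the proliferative zone (limma adjusted p = 1.70e-05) and rose by 1.68 ± 0.22 from there to the transition zone (limma adjusted p = 4.70e-06). Of 14 tested genes listed as inhibitors other than serpins, 7 passed, beside the same 60.5%. Being in that list does not show that a gene's product inhibits a protease. Itih3, a heavy chain bound to hyaluronan, rose by 3.01 ± 0.30 from epiphyseal to resting cartilage in 4 of 4 animals (limma adjusted p = 8.16e-07). It then fell by 2.49 ± 0.28 from the proliferative to the transition zone in 5 of 5 animals (limma adjusted p = 4.46e-07). In the hypertrophic zone it was lower than in the resting zone, at a difference of -3.41 ± 0.28 in 5 of 5 animals (limma adjusted p = 4.80e-10). Wfdc2 rose by 1.81 ± 0.28 between the transition and the hypertrophic zone (limma adjusted p = 4.07e-05).

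Median differences of the 71 genes were 0.25, 0.32 and 0.20 in the hypertrophic zone against the transition, proliferative and resting zones, beside the all-gene medians given above. From resting to proliferative the median was -0.23, against 0.021 over all genes. Of the 17 calls between the transition and the hypertrophic zone, 13 were also made without the hypertrophic array of animal 4. Of the 19 against the resting zone, 15 were. Each value is as precise as 4 or 5 arrays a zone allow.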

How the data were processed

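RNA of microdissected cartilage was amplified in a pair of cycles, labelled with biotin and hybridised to Affymetrix arrays, per the labels' protocols. The authors deposited intensity values, 1 MAS5 signal per probe set by the submitters' processing notes. The sources used here do not give its version. From the values, every array had been scaled to a trimmed mean of 500.1 to 500.2 (2% trimmed at each end), with medians of 135.3 to 244.6. No detection calls were used.

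Signals were taken as log2(signal + 16), which compresses differences among dim probe sets. Probe sets above the array median in at least 4 of 24 arrays were tested (19213 of 31099, 57 control probe sets left out), and 13956 of these had 1 gene symbol, for 10558 genes, each represented by its brightest probe set. limma 3.58.1 in R 4.3.3 fitted zone and animal with a mean-variance trend and 15 residual degrees of freedom, and p was adjusted over all tested probe sets. On data simulated for the hypertrophic against proliferative comparison over 19213 probe sets, 84 of 100 3-fold and 94 of 100 6-fold changes were recovered.

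The sample descriptions name an animal number for each array, from which the block was taken; whether a number is the same rat under both label wordings is not stated. Deviations from the zone means correlated at a median of 0.176 over 46 pairs of the same animal number (-0.142 to 0.36) and -0.046 over 184 pairs of different numbers. No arrays of a zone were duplicates, with at most 50 identical values.

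The 6 genes and all lists were chosen with earlier results of these data known. Related genes were named as the 5 called with the smallest adjusted p per direction and comparison, plus every called serpin. Plaur, Plg, Serpinh1 and Gzmk, and called genes listed without values, were named outside that rule after their values were seen. Alternatives were another pseudocount (1 or 64), normalization, filter, block, variance model, array weights, samples or probe set, and each animal left out. The settings that drop animal 4's hypertrophic array, or both epiphyseal arrays of animals 1 and 2, were chosen after seeing the data. Promoter sequences are from RefSeq (GRCr8). Some listed genes were not analysed here.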

Additional observations from a re-analysis of the deposited data

Results flagged for a closer look

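Within each zone, arrays were checked for a value far from the others, by the gap to the nearest value over the whole range on the log2 scale. Of 85 such groups 7 held such an array, where chance gives about 1 in 20. For Serpinf1 it was the hypertrophic array of animal 4, at 8199 (0.765 of the range). For Plat it was the proliferative array of animal 3, at 72.0 (0.851), and the transition array of animal 5, at 3.9 (0.873). Summed osteoclast and macrophage markers stood apart in the hypertrophic array of animal 4, at 88570 (0.809), as did perichondrium and fibroblast markers, at 152200 (0.829). Osteoblast markers stood apart in the epiphyseal array of animal 1, at 45630 (0.895), and leukocyte markers in the proliferative array of animal 5, at 2809 (0.745). Why these arrays differ was not tested.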

How the results depend on the processing

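Of the 108 recomputed counts of related genes called, 101 stayed within 1.5 times the value with all arrays. With a filter at the 75th percentile of the array, which left 30 of the 71 genes, the counts were 10, 13 and 12 for the hypertrophic against the transition, proliferative and resting zones, and 26 genes passed the F test. With array weights 5 genes were called between epiphyseal cartilage and the resting zone, and 1 when animals 1 and 2 gave no epiphyseal array to the fit. Leaving out animals in turn, or the hypertrophic array of animal 4, gave 1 to 4 there. With no replicate block the counts were 2, 6, 7, 16, 20 and 18 in the order of the comparisons, against 3, 7, 7, 17, 20 and 19 with the replicate block, and 39 against 40 genes passed the F test.

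Of 660 recomputed differences of the 6 genes, 655 moved by less than the residual SD of the fit, and 24 changed sign. In 19 of those 24 the difference with all arrays was within its standard error. The other 5 were as follows. When animals 1 and 2 gave no epiphyseal array, the difference of resting minus epiphyseal cartilage turned to 0.17 for Plat, 0.52 for Plau and 0.02 for Serpinf1. On the second Plau probe set the resting minus epiphyseal difference turned to 0.48 and the proliferative minus resting difference to 0.10. Among the 19, its transition minus proliferative difference turned from 0.25 to -0.97; the cause was not tested. Serping1, Plat and the second Plau probe set lay mostly below the array median, where signal over background limits all values.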
